A study of Mus musculus with 12 samples.

Results

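The 9 genes described here encode C-type lectin receptors of myeloid cells: Clec4n, Clec4d, Clec4e, Clec7a, Clec4a1, Clec4a2, Clec4a3, Clec5a and Clec12a. They were chosen by name, with earlier results of these data known, from the 35275 genes for which counts were listed. Their rows were found by Ensembl identifier, and 9 of 9 passed the filter on low counts that left 12849 genes for testing. RNA was sequenced from bone marrow-derived macrophages (BMDMs), cells grown from the bone marrow of wildtype mice with the cytokines IL4, IL10 and M-CSF. During the 6 days of culture the cells received DMSO, the solvent control, olaparib, an inhibitor of poly(ADP-ribose) polymerases (PARP), or MNA, a methylated nicotinamide derived from NAD metabolism. Each of the 3 groups had 4 libraries, numbered 1 to 4, so that the cytokines were common to all groups. The study asked how gene expression differs between olaparib and control and between MNA and control. The labels do not say whether the libraries of a group come from separate mice, and p-values and intervals then measure only the spread between these libraries, which may be technical.

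C-type lectin receptors recognise sugars, glycolipids and debris of dying cells on fungi, mycobacteria and host tissue. Activating members reach the kinase Syk, either through a short tyrosine motif in their own tail (Clec7a) or through the adaptors Fcer1g (Clec4n, Clec4d and Clec4e) or Tyrobp (Clec5a), and Syk then signals through Card9 to cytokine genes. Inhibitory members (Clec4a2 and Clec12a) carry a tail motif that recruits the phosphatases Ptpn6 and Ptpn11. In macrophages and dendritic cells the family is known for phagocytosis and for tuning inflammatory responses, and Clec7a is also known as a gene that IL-4 raises in macrophages.

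Library totals ran from 21146291 to 31446849 counts on genes. MNA replicate 2 stood apart from its group. Its root-mean-square log2 difference was 0.288 to the mean of the DMSO libraries and 0.892 to the mean of the other MNA libraries, while MNA replicates 1, 3 and 4 lay 0.905 to 0.937 from DMSO. It was kept as an MNA library, its values are given apart, and MNA results on the 9 genes are given with and without it. Levels are CPM, the usual scaling of counts to a common library total, after TMM normalization, and levels of different genes are compared only as CPM per kilobase (kb) of exon. A gene was called higher or lower at a Benjamini-Hochberg adjusted p under 0.05 over all tested genes in edgeR's quasi-likelihood test on the 12 libraries. Because the genes were named with results of these comparisons known, their calls and intervals describe them and are not independent tests.

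All 9 genes lie on chromosome 6 of GRCm38. Clec4a1, Clec4a3, Clec4a2, Clec4n, Clec4d and Clec4e follow each other within 368 kb (chromosome 6, 122921848 to 123289870). Clec12a and Clec7a lie within 130 kb of each other (129342691 to 129472779), and Clec5a stands apart (40574894 to 40585821). Clec4d (123262111 to 123275265, plus strand) and Clec4e (123281789 to 123289870, minus strand) are the closest pair, with 6.52 kb between them. The annotation lists 8 of the genes as protein coding and gives Clec7a the class polymorphic pseudogene. Shared sequence was highest for Clec4a2, in which 10.9% of the 31-base words of the exons also occur in another gene, mostly Clec4a4. The effect of this on its counts was not tested. In the other 8 genes the shared part was at most 2.19%.

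RefSeq promoter sequences (GRCm38.p6) were held for 8 of the 9 genes, all but Clec4n. 7 short motifs were searched on both strands in the 250 bases before each start, and the same search was run in 27025 promoters of that length. The motif of TTC and GAA with 4 bases of any kind between them, the form bound by STAT6, the transcription factor that IL-4 activates, was in 3 of the 8 promoters and in 5.86% of all promoters. The 3 were those of Clec7a, Clec4a1 and Clec5a. In the fit of 12 libraries these were also the 3 genes called higher with both olaparib and MNA. Without MNA replicate 2, Clec4n was called higher with both as well, and its promoter was not searched. A link between motif and response was not tested. The 3 promoters are shown for the shared names, noticed after both were known, with the motif in capitals:
Clec7a (chr6:129472780-129473029, minus strand): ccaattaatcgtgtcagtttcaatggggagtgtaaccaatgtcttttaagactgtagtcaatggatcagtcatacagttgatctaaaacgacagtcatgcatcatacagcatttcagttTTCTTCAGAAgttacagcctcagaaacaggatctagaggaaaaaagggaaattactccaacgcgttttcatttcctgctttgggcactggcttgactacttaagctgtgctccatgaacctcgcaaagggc
Clec4a1 (chr6:122921598-122921847, plus strand): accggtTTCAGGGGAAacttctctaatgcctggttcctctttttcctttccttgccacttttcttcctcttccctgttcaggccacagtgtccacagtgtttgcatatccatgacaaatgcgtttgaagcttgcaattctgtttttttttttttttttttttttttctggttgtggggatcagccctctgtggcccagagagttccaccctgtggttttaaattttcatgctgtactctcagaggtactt
Clec5a (chr6:40585806-40586055, minus strand): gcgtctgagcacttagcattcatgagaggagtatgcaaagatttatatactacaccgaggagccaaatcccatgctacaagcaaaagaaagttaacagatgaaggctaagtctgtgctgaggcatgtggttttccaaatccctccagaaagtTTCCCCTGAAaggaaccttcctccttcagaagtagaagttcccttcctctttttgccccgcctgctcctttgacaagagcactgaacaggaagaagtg
The motif begins 131 bases before the start of Clec7a, 244 before that of Clec4a1 and 98 before that of Clec5a. The letters TTNNGNAA, found in sites of C/EBP, a factor family of myeloid genes, were in 5 of the 8 promoters (Clec4d, Clec4e, Clec4a2, Clec5a and Clec12a) and in 36.9% of all promoters. The neighbours Clec4d and Clec4e were both called higher with olaparib and not called with MNA, as were Clec4a2, Clec4a3 and Clec12a. Clec4a3 lacks these letters, and Clec5a, which holds them, was called higher with both treatments. The promoters of Clec4d and Clec4e are shown with this motif in capitals:
Clec4d (chr6:123261857-123262106, plus strand): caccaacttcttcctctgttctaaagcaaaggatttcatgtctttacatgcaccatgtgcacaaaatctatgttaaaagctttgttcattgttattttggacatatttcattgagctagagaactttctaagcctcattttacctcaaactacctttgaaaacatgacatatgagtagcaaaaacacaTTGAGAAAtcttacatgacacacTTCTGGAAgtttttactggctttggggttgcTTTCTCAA
Clec4e (chr6:123289872-123290121, minus strand): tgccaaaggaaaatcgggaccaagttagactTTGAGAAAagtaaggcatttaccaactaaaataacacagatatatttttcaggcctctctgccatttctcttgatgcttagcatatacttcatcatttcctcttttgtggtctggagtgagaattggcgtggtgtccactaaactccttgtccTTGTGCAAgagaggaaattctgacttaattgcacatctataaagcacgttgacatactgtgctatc
Clec4d held the motif at 3 places and Clec4e at 2. In Clec4d the second of these overlaps the ETS core GGAAGT, which was also in Clec4a2 and in 20% of all promoters. The AP-1 letters TGANTCA were in Clec12a alone (6.87% of all promoters), the shorter STAT letters TTCNNNGAA in Clec4a2 alone (7.18%), the kappaB letters GGG and CC with 5 bases between them in Clec4a1 alone (45.4%), and the IRF letters, GAAA and GAAA with 2 bases between them, in 0 of 8 (3.04%). These matches describe the letters in the window and are not shown to be bound.

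Olaparib-treated BMDMs had higher RNA of the whole set. In the comparison with DMSO, 9 of 9 genes were called higher, where 14.3% of all tested genes were. In 8 of 9 genes each olaparib library was above each DMSO library, which held for 20.7% of all tested genes. The median log2 fold change was 0.90 over the 9 genes and 0.0038 over all tested genes. Among all tested genes ordered by log2 fold change, Clec4n was number 10, Clec4d number 241 and Clec4a1 number 379, and the others lay between number 858 (Clec7a) and number 1981 (Clec12a). In these bulk samples, a change in the RNA per cell and a change in the share of cells that carry it cannot be told apart.

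With MNA the genes divided. 3 of 9, Clec7a, Clec4a1 and Clec5a, were called higher than with DMSO, where 16.3% of all tested genes were, and 0 of 9 were called lower (12.3% of all). At an unadjusted p under 0.05, 4 of the 9 were higher and 1 lower in edgeR, where 23.4% and 21.4% of all tested genes were. Without MNA replicate 2, Clec4n joined them and 4 of 9 were called higher, where 27.2% of all tested genes were. The median log2 fold change over the 9 genes was -0.05 with the library and 0.0016 without it. With all 4 MNA libraries, 0 genes of the set had MNA libraries that all lay above DMSO (6.24% of all tested genes), and without MNA replicate 2 these were Clec7a, Clec4a1 and Clec5a (27.2%).

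**Figure D1:**
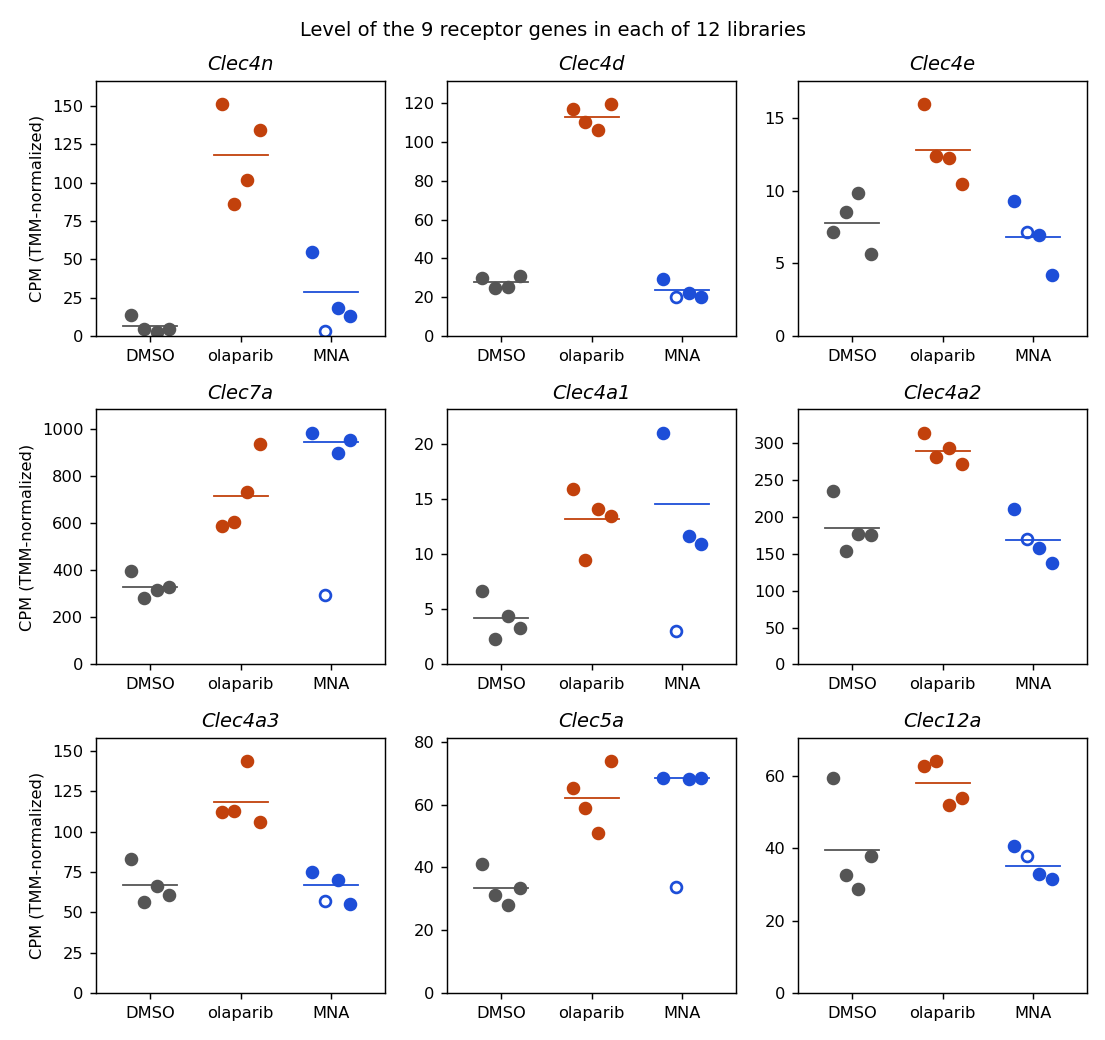
Level of each receptor gene in CPM after TMM scaling (vertical axis, from 0) in the 4 libraries of each group, with replicates 1 to 4 from left to right. The open circle is MNA replicate 2, lines are group means (for MNA over replicates 1, 3 and 4), and each olaparib library is above each DMSO library in every panel except Clec12a.

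Clec4n encodes Dectin-2, a receptor for fungal mannans that signals through Fcer1g. It stood at 14.0, 4.51, 2.92 and 4.44 CPM in DMSO replicates 1 to 4, and at 151, 86.1, 102 and 134 CPM in the olaparib libraries. It was at 54.6, 18.0 and 12.9 CPM in MNA replicates 1, 3 and 4 and at 3.30 CPM in MNA replicate 2. All olaparib libraries were above all others, while the MNA libraries spread over the range between DMSO and olaparib and, of these, replicates 1 and 3 exceeded the highest DMSO library. The fold change with olaparib was 18.8, a log2 fold change of 4.23 with a 95% interval of 2.64 to 5.82, and 4.90 without DMSO replicate 1. With MNA the log2 fold change was 1.81 (0.32 to 3.30) and was not called (edgeR adjusted p = 0.0636), and single libraries moved it, to 0.85 without MNA replicate 1 and to 2.48 without DMSO replicate 1, where it was called (edgeR adjusted p = 0.0406). Without MNA replicate 2 it was 2.20 (1.11 to 3.30) and was called (edgeR adjusted p = 0.0023). Between the treatments, Clec4n was higher with olaparib by a log2 difference of 2.42 (0.98 to 3.86), or 2.06 (1.03 to 3.08) without MNA replicate 2 and 3.38 without MNA replicate 1.

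Clec4d encodes MCL, a receptor for mycobacterial glycolipids that forms a complex with the product of Clec4e. Its levels were 30.0, 24.7, 25.4 and 31.05 CPM with DMSO and 117, 110.2, 106 and 119.5 CPM with olaparib. With MNA they were 29.5, 22.0 and 20.3 CPM, and 20.3 CPM in replicate 2. The olaparib libraries formed a narrow group far above both others, and the MNA libraries overlapped DMSO. With olaparib the log2 fold change was 2.03 (1.76 to 2.29), with the narrowest interval of the 9 genes. With MNA it was -0.27 (-0.54 to -0.0087), which was not called (edgeR adjusted p = 0.102), and -0.22 (-0.47 to 0.036) without MNA replicate 2.

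Clec4e encodes Mincle, a receptor for mycobacterial cord factor and for a nuclear protein released by dying cells. It was low throughout, at 7.13, 8.53, 9.82 and 5.62 CPM with DMSO and 15.9, 12.4, 12.2 and 10.5 CPM with olaparib. The MNA levels were 9.25, 6.91 and 4.18 CPM, and 7.13 CPM in replicate 2. The lowest olaparib library lay just above the highest DMSO library, and the MNA libraries overlapped DMSO. Its log2 fold change was 0.71 (0.21 to 1.21) with olaparib and -0.18 (-0.68 to 0.33) with MNA, or -0.20 without MNA replicate 2. The olaparib call was made in 4 of the 12 fits that left out 1 library, with an edgeR adjusted p between 0.0164 and 0.104. It was lost without DMSO replicate 1, 2 or 4, without any 1 of the olaparib libraries, and without MNA replicate 3.

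Clec7a encodes Dectin-1, the receptor for beta-glucans of fungal walls. It stood at 395, 281, 315 and 330.3 CPM with DMSO and at 587, 606, 730.1 and 934 CPM with olaparib. MNA replicates 1, 3 and 4 had 983, 899 and 952 CPM and MNA replicate 2 had 296 CPM. Both treatments lay above all DMSO libraries except for MNA replicate 2, which was inside the DMSO range. The log2 fold change was 1.11 (0.45 to 1.77) with olaparib and 1.24 (0.58 to 1.90) with MNA. Without MNA replicate 2 the latter was 1.51 (1.21 to 1.82). Olaparib minus MNA was -0.13 (-0.78 to 0.52) and not called, and -0.40 (-0.71 to -0.098) without MNA replicate 2, which was called (edgeR adjusted p = 0.0348). The olaparib call was lost without DMSO replicate 2, DMSO replicate 3 or olaparib replicate 4, with an edgeR adjusted p of at most 0.0619.

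Clec5a encodes MDL-1, a receptor that pairs with Tyrobp and Hcst. Its levels were 41.0, 31.2, 27.9 and 33.3 CPM with DMSO and 65.2, 58.9, 51.0 and 73.9 CPM with olaparib. MNA replicates 1, 3 and 4 had 68.4, 68.3 and 68.3 CPM, and MNA replicate 2 had 33.9 CPM. The 3 MNA libraries were nearly equal and above all DMSO libraries, and replicate 2 was inside the DMSO range. The log2 fold change was 0.90 (0.45 to 1.35) with olaparib and 0.84 (0.39 to 1.29) with MNA, or 1.04 (0.77 to 1.30) without MNA replicate 2. Olaparib minus MNA was 0.061 (-0.39 to 0.51), and -0.13 (-0.40 to 0.13) without MNA replicate 2.

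Clec4a2, Clec4a3 and Clec4a1 belong to the dendritic cell immunoreceptor (DCIR) group, of which Clec4a2, or DCIR itself, is the inhibitory founder. Clec4a2 stood at 235, 153, 177 and 176 CPM with DMSO and at 314, 281, 294 and 271 CPM with olaparib. MNA gave 212, 159 and 137 CPM, and 170.3 CPM in replicate 2. The olaparib libraries were above all others and the MNA libraries overlapped DMSO. For Clec4a2 the log2 fold change was 0.65 (0.34 to 0.95) with olaparib and -0.13 (-0.43 to 0.18) with MNA, at the same value without MNA replicate 2.

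Clec4a3 followed the same order, with 82.9, 56.3, 66.5 and 60.7 CPM in DMSO and 112, 113, 144 and 106 CPM in olaparib. The MNA levels were 75.0, 69.8 and 55.2 CPM, and 57.0 CPM in replicate 2. Again only the olaparib libraries stood clear of DMSO. Its log2 fold change was 0.83 (0.53 to 1.14) with olaparib and -0.05 (-0.36 to 0.25) with MNA, or 0.0016 without MNA replicate 2.

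Clec4a1 was far lower and differed in its response to MNA. It stood at 6.66, 2.34, 4.39 and 3.33 CPM with DMSO and at 15.9, 9.43, 14.1 and 13.4 CPM with olaparib. MNA replicates 1, 3 and 4 had 21.02, 11.7 and 10.9 CPM and MNA replicate 2 had 3.01 CPM. Both treatments lay above DMSO except for that library. The log2 fold change was 1.67 (0.66 to 2.69) with olaparib and 1.49 (0.48 to 2.50) with MNA, or 1.82 (1.17 to 2.47) without MNA replicate 2. Its olaparib call was lost without DMSO replicate 2, 3 or 4, with an edgeR adjusted p of at most 0.0625.

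Clec12a encodes MICL, an inhibitory receptor for uric acid crystals of dead cells. It had 59.5, 32.7, 28.6 and 37.8 CPM with DMSO and 62.7, 64.1, 51.9 and 54.1 CPM with olaparib. The MNA levels were 40.6, 33.0 and 31.6 CPM, and 37.7 CPM in replicate 2. DMSO replicate 1 lay inside the olaparib range, so the groups overlapped in this gene only. For Clec12a the log2 fold change was 0.56 (0.15 to 0.97) with olaparib and -0.15 (-0.56 to 0.26) with MNA, or -0.17 without MNA replicate 2. The olaparib call was made in 2 of the 12 fits that left out 1 library, those without DMSO replicate 1 and without MNA replicate 2, with an edgeR adjusted p between 0.0020 and 0.123 over the 12.

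**Figure D2:**
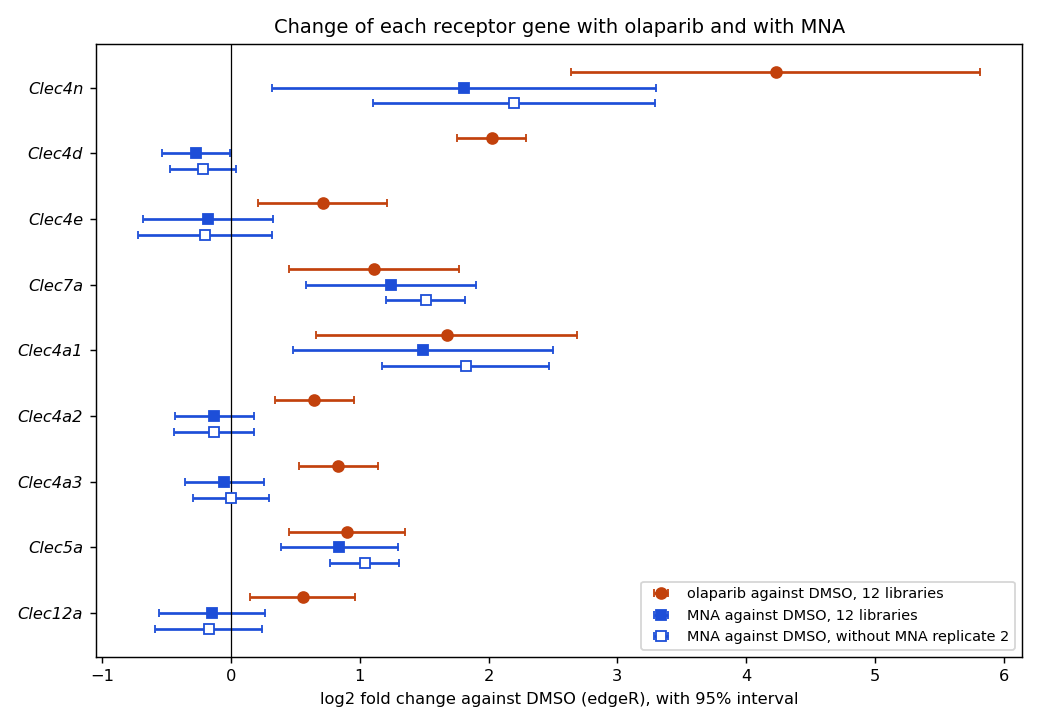
Log2 fold change of each receptor gene against DMSO with its 95% interval from edgeR, for olaparib (circles), for MNA with 12 libraries (filled squares) and for MNA without replicate 2 (open squares). The MNA intervals of Clec4e, Clec4a2, Clec4a3 and Clec12a cover 0, and those of Clec7a, Clec4a1 and Clec5a lie above it both with and without MNA replicate 2.

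The MNA calls depended on single libraries other than MNA replicate 2. Without DMSO replicate 2, DMSO replicate 3, or MNA replicate 1, 3 or 4, 0 of the 9 genes were called higher with MNA. Fewer genes of the whole table were called in those fits too: the share called higher was 7.11%, 7.10%, 5.31%, 3.13% and 3.41% in that order of libraries. Over all 12 fits that left out 1 library, the log2 fold change of Clec7a lay between 1.12 and 1.51, the latter without MNA replicate 2. When the MNA and DMSO libraries were fitted alone, 0 of 9 were called higher, as were 0.00% of all tested genes. With DESeq2 4 of 9 were called higher, where 18.9% of all tested genes were. With the replicate number as a block, Clec4n was called with MNA as well (edgeR adjusted p = 0.0315), making 4 of 9, where 17.0% of all tested genes were called higher.

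Olaparib and MNA libraries were also set against each other, with the caution that both had been read against the same DMSO libraries. 6 of 9 genes were called higher with olaparib, where 10.9% of all tested genes were, and in the same 6 all olaparib libraries lay above all MNA libraries, which held for 11.5% of all tested genes. The log2 differences were 2.30 (2.03 to 2.57) for Clec4d, 0.89 (0.39 to 1.40) for Clec4e, 0.78 (0.47 to 1.08) for Clec4a2, 0.89 (0.58 to 1.19) for Clec4a3 and 0.70 (0.29 to 1.12) for Clec12a, beside that of Clec4n. Without MNA replicate 2 they were 2.24, 0.91, 0.78, 0.83 and 0.73 in the same order, all called. The adaptor-coupled trio Clec4n, Clec4d and Clec4e, the DCIR genes Clec4a2 and Clec4a3 and the inhibitory Clec12a thus made up this set. Clec4a1 was not called, with a log2 difference of 0.18 (-0.78 to 1.15), or -0.13 (-0.74 to 0.47) without MNA replicate 2. Without olaparib replicate 1 or 4 or MNA replicate 3 or 4, the Clec4n difference was no longer called, with an edgeR adjusted p of at most 0.0644. That of Clec12a was lost without olaparib replicate 1 or 2 or MNA replicate 3 or 4 (at most 0.0634), and that of Clec4e without olaparib replicate 1 (0.0544).

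The make-up of the set changed differently with each treatment. Per kb of exon, Clec7a was the highest gene in every group, at 125 ± 18.1 CPM per kb with DMSO, 271 ± 60.5 with olaparib and 297 ± 124 with MNA (SD, n = 4), or 358 ± 16.1 in MNA replicates 1, 3 and 4. In DMSO it was followed by Clec4a2 (63.3 ± 11.9), Clec4a3 (50.2 ± 8.77), Clec4d (17.4 ± 2.02), Clec5a (8.68 ± 1.44), Clec12a (7.18 ± 2.49), Clec4n (4.55 ± 3.56), Clec4a1 (2.68 ± 1.19) and Clec4e (1.57 ± 0.364). The ranges of neighbours in this order overlapped between Clec4a2 and Clec4a3 and for all neighbours from Clec5a downward. With olaparib Clec4n moved from number 7 to number 4 of the order, at 83.4 ± 20.9 CPM per kb, where its range overlapped those of Clec4a3 and Clec4d. With MNA its mean was 15.6 ± 15.8 CPM per kb, set by 38.4 in replicate 1. In replicates 2, 3 and 4 it was at 2.32, 12.7 and 9.06, below Clec5a (8.82, 17.8 and 17.8) and Clec4d in each of these libraries.

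The summed level of the 9 genes was 237 to 348 CPM per kb in the DMSO libraries, 576 to 736 in the olaparib libraries and 502 to 599 in MNA replicates 1, 3 and 4, against 247 in MNA replicate 2. Clec7a made up 43.0% to 46.0% of this sum with DMSO, 35.0% to 48.1% with olaparib and 62.2% to 71.8% in MNA replicates 1, 3 and 4. Clec4n made up 0.773% to 2.83% with DMSO, 10.5% to 16.7% with olaparib and 1.80% to 6.42% in those MNA libraries. The share of Clec4a2 was 22.0% to 23.0% with DMSO, 12.6% to 16.9% with olaparib and 9.34% to 12.1% in MNA replicates 1, 3 and 4. The sum thus rose in both treatments, with most of the MNA gain in Clec7a and the olaparib gain spread over Clec7a, Clec4n, Clec4d and the DCIR genes.

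**Figure D3:**
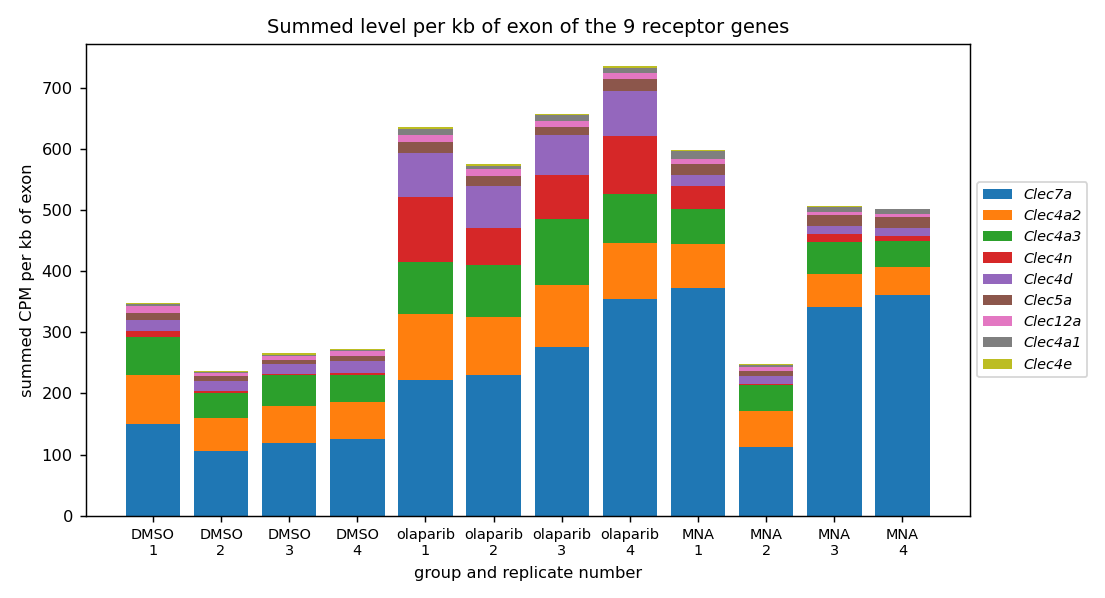
Summed level of the 9 receptor genes in CPM per kb of exon (vertical axis, from 0) in each library, with each gene as a coloured part of the bar. MNA replicate 2, at 247, has a bar like those of DMSO, and the Clec4n and Clec4d parts are widest with olaparib.

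Replicate 1 was often the highest library of its group. It had the highest level of 7 of the 9 genes in DMSO (all but Clec4d and Clec4e), of 4 in olaparib and of 9 in MNA. In MNA the margin was wide for Clec4n and Clec4a1 and slight for Clec5a.

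For each gene, the most similar gene over the 12 libraries was taken among 9745 genes whose mean over the libraries was 100 counts or more, by the root-mean-square difference of log2 CPM after centring each gene on its own mean. The nearest genes were Gm2a for Clec7a (0.108), Acot7 for Clec5a (0.123), Klc4 for Clec4a3 (0.122), Cysltr1 for Clec4a2 (0.0973) and Clec4a2 for Clec12a (0.169). They were Rasgrp2 for Clec4d (0.223), Inf2 for Clec4e (0.250), Sema4a for Clec4a1 (0.293) and Mx1 for Clec4n (0.543). Clec4b1, the next tested gene before Clec4a2 on the chromosome, was the second nearest to Clec4a2 (0.112). Clec4n had no close partner within the set, with Clec4d nearest at 1.32 and 47 other genes nearer than that, while for Clec12a no gene was nearer than a member.

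The tested genes next to members on the chromosome were read in the same way. Clec4b1, a DCIR-related receptor gene between Clec4a4 and Clec4a2, stood at 16.5 ± 3.21 CPM with DMSO, 26.2 ± 3.56 with olaparib and 13.3 ± 1.69 with MNA (SD, n = 4). Its log2 fold change was 0.67 with olaparib (edgeR adjusted p = 0.00657) and -0.31 with MNA (edgeR adjusted p = 0.117), so it was called with olaparib and not with MNA, as were Clec4a2 and Clec4a3. Olr1, the oxidised lipoprotein receptor gene beside Clec7a, was also called with olaparib (0.72, edgeR adjusted p = 0.0396) and not with MNA (-0.49, edgeR adjusted p = 0.126; without MNA replicate 2 -0.64, edgeR adjusted p = 0.0259, which was called lower). Clec1a, on the other side of Clec7a, had 3, 2, 3 and 6 counts in the DMSO libraries, 8, 13, 23 and 52 with olaparib and 52, 14 and 26 in MNA replicates 1, 3 and 4, against 5 in replicate 2. It was called higher with olaparib (2.79, edgeR adjusted p = 0.0249) and MNA (2.90, edgeR adjusted p = 0.0251) at these low counts. Cd69, near Clec12a, was below 1.3 CPM in every library and was called with olaparib (1.34, edgeR adjusted p = 0.0170). Clec4a4, the DCIR2 gene, was not called in either comparison, and Necap1, a clathrin adaptor gene next to Clec4a1, was called slightly lower with olaparib (-0.25, edgeR adjusted p = 0.0329). Beside Clec5a, Ssbp1 was called higher with olaparib (0.43, edgeR adjusted p = 0.0267) and Mgam lower with MNA (-1.77, edgeR adjusted p = 0.0276), while Cd163, the next tested gene beyond Clec4e, was not called with either treatment.

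Among 30 other C-type lectin receptor genes, 13 passed the filter on low counts. With olaparib 6 were called higher and 1 lower, where 14.3% and 12.8% of all tested genes were. With MNA 2 were called higher, Cd72 and Clec1a, and 2 lower, Mrc1 and Cd302, where 16.3% and 12.3% of all tested genes were. Without MNA replicate 2, 3 were called higher and 6 lower with MNA, where 27.2% of all tested genes were called higher. The share of all tested genes called lower in that fit is not given here. The median log2 fold change of the 13 was 0.67 with olaparib and -0.31 with MNA. Mrc1, the mannose receptor of alternatively activated macrophages, stood at 679 ± 125 CPM with DMSO, 571 ± 98.9 with olaparib and 241 ± 187 with MNA (SD, n = 4), with 519 CPM in MNA replicate 2 and 129 to 185 CPM in the other MNA libraries. Its log2 fold change with MNA was -1.49 (edgeR adjusted p = 0.0210), or -2.19 without MNA replicate 2. Cd302, a receptor of phagocytes, was called higher with olaparib (0.49, edgeR adjusted p = 0.0207) and lower with MNA (-0.45, edgeR adjusted p = 0.0308, or -0.63 without MNA replicate 2).

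The adaptors and kinases that these receptors use were measured in the same libraries. Of 22 genes of this list, 22 passed the filter, and 7 were called higher and 2 lower with olaparib, against 11 higher and 3 lower with MNA. Over all tested genes the shares were 14.3% and 12.8% with olaparib and 16.3% and 12.3% with MNA. Without MNA replicate 2 the list had 14 higher and 5 lower with MNA, and 11 higher and 4 lower with olaparib. In that fit 27.2% of all tested genes were called higher with MNA, and the other shares are not given here. Tyrobp (DAP12), the adaptor of Clec5a, rose from 244 ± 31.1 CPM with DMSO to 491 ± 13.4 with olaparib (SD, n = 4), a log2 fold change of 1.01 (edgeR adjusted p = 0.00476). With MNA it reached 400.02 ± 131 CPM (0.71, edgeR adjusted p = 0.0265), or 0.92 without MNA replicate 2. Hcst (DAP10), which can join it, rose with both treatments, by a log2 fold change of 1.12 with olaparib and 0.95 with MNA, or 1.16 without MNA replicate 2. Fcer1g, the adaptor of Clec4n, Clec4d and Clec4e, was not called with olaparib (0.15, edgeR adjusted p = 0.328) and rose with MNA (0.35, edgeR adjusted p = 0.0342, or 0.46 without MNA replicate 2), the treatment in which Clec4d and Clec4e were not called.

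Syk stood at 536 ± 6.99 CPM with DMSO (SD, n = 4) and fell by 0.25 on the log2 scale with olaparib (edgeR adjusted p = 0.0264) and by 0.24 with MNA (edgeR adjusted p = 0.0312), or by 0.30 without MNA replicate 2. Card9, which relays the Syk signal, was not called in either comparison. Ptpn6 (SHP-1), the phosphatase of the inhibitory members, stood at 57.2 ± 1.49 CPM with DMSO, 92.6 ± 4.25 with olaparib and 136 ± 55.3 with MNA (SD, n = 4). It was called with MNA (1.25, edgeR adjusted p = 0.0142) and not with olaparib (0.69, edgeR adjusted p = 0.0595). Its olaparib libraries all lay above DMSO, which held for 20.7% of all tested genes, and its olaparib call was made without MNA replicate 2. Inpp5d (SHIP1), the exchange factor Vav1 and the kinase Prkcd were called higher with both treatments, while Lyn was called with MNA and not with olaparib (0.91, edgeR adjusted p = 0.0150; with olaparib 0.43, edgeR adjusted p = 0.117, and called without MNA replicate 2). Fgr and Cblb were added after their values were seen. Fgr, a Src-family kinase, stood at 10.3 ± 4.71 CPM with DMSO, 24.1 ± 3.86 with olaparib and 2.69 ± 2.41 with MNA (SD, n = 4), and was called lower with MNA (-1.92, edgeR adjusted p = 0.0194, or -2.77 without MNA replicate 2) and higher with olaparib than with MNA (3.15, edgeR adjusted p = 0.00101). With olaparib its log2 fold change was 1.23 and was not called (edgeR adjusted p = 0.0555), but was without MNA replicate 2 (edgeR adjusted p = 0.00107). Cblb, a ubiquitin ligase that restrains Syk signalling, stood at 541 ± 37.7, 314 ± 27.2 and 203 ± 169 CPM in that order, and was called lower with MNA (-1.42, edgeR adjusted p = 0.0240, or -2.20 without MNA replicate 2). With olaparib it was at -0.78 (edgeR adjusted p = 0.140), or -0.79 and called without MNA replicate 2.

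**Figure D4:**
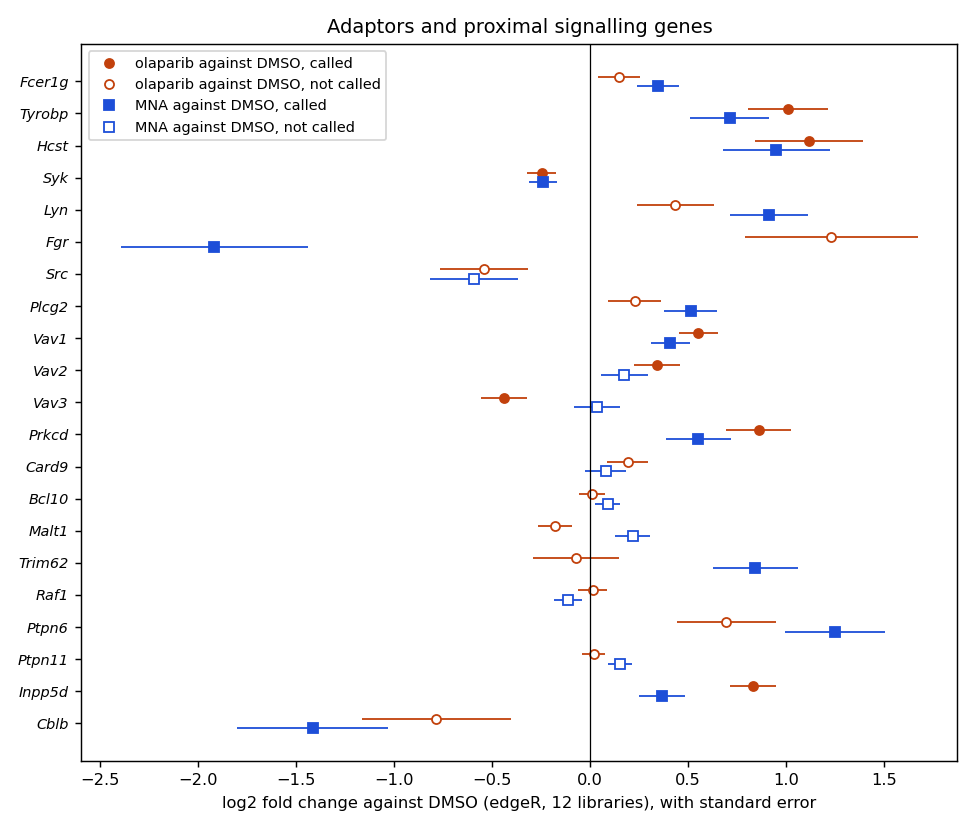
Log2 fold change against DMSO with its standard error (edgeR, 12 libraries) for 21 of the 22 adaptor and proximal signalling genes, for olaparib (circles) and MNA (squares), where filled symbols were called at an adjusted p under 0.05. Tyrobp and Hcst lie above 0 with both treatments, Syk just below 0, and Card9 at about 0.

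Of 21 genes known as outputs of the Syk and Card9 route, 15 passed the filter. With olaparib 2 were called higher and 2 lower, and with MNA 5 were called higher and 2 lower. With olaparib these counts, 13.3% of the list in each direction, were close to the shares over all tested genes (14.3% and 12.8%), as were the 2 lower with MNA (12.3% of all). The 5 higher with MNA were 33.3% of the list, where 16.3% of all tested genes were called higher. Without MNA replicate 2, 5 were called higher and 4 lower with MNA, where 27.2% of all tested genes were called higher. The same fit also called 5 higher and 4 lower with olaparib, so the counts did not then differ between the treatments. The shares of all tested genes with olaparib in that fit are not given here. The chemokine genes Ccl3 and Ccl4 stood at 6.27 ± 2.47 and 2.35 ± 1.44 CPM with DMSO (SD, n = 4). They were called higher with MNA (2.64, edgeR adjusted p = 0.0142, and 2.66, edgeR adjusted p = 0.0165) and not with olaparib (0.76, edgeR adjusted p = 0.266, and 1.09, edgeR adjusted p = 0.197), although the latter were called without MNA replicate 2. Ptgs2 (COX-2) rose with MNA from 0.367 ± 0.115 to 2.64 ± 1.39 CPM (SD, n = 4), and to 3.33 ± 0.188 in MNA replicates 1, 3 and 4. Egr2 rose with olaparib by a log2 fold change of 0.26 (edgeR adjusted p = 0.0112) and Egr1 fell by 1.46 on the log2 scale (edgeR adjusted p = 0.00132). Egr3 was called lower at very low counts, with 43, 17, 41 and 18 in the DMSO libraries and 4, 6, 1 and 0 in the olaparib libraries.

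Markers of macrophages and of other cells were summed in each library beside these results. All 8 macrophage markers passed the filter, and their sum was 4190.5 to 5304 CPM with DMSO, 8726 to 10495 with olaparib and 5786 to 7627 in MNA replicates 1, 3 and 4, so it moved in the same direction as the receptor genes with olaparib. The 10 neutrophil markers, of which 4 passed, summed to 1.38 to 10.9 CPM with DMSO, 3.07 to 4.09 with olaparib and 5.31 to 69.3 in those MNA libraries, and the defining marker Ly6g was at 3 or fewer counts in every DMSO and olaparib library. The 6 monocyte markers, of which 4 passed, summed to 9.60 to 11.5, 13.7 to 20.1 and 25.3 to 28.3 CPM in the same order of groups. The 6 dendritic cell markers, of which 4 passed, gave 1564 to 1800, 2413 to 2672 and 2016 to 2375 CPM, nearly all of it Itgax, which macrophages also express. The others went different ways: with olaparib Ccr7 was called higher (0.231 ± 0.145 to 1.45 ± 0.548 CPM, n = 4) and Xcr1 lower (1.79 ± 0.413 to 0.784 ± 0.201 CPM, n = 4), Zbtb46 was not called, and Flt3 was at 3 or fewer counts in every DMSO and olaparib library. The 4 eosinophil markers, of which Siglecf alone passed, gave 3.78 to 6.95, 31.1 to 58.5 and 6.998 to 9.99 CPM, while the defining markers Prg2 and Epx were at 3 or fewer counts in every DMSO and olaparib library. B cell, T and NK cell, mast cell and basophil, and stromal markers each summed to at most 6.45 CPM in any library. The part of these cell types in the receptor results was not tested.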

How the data were processed

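RNA libraries were made by the authors with a stranded mRNA kit and sequenced single-end, and per the submitters' processing notes aligned with STAR 2.5.2b to GRCm38. For each library the authors deposited raw counts per Ensembl gene, without normalization. The strand setting of the counting is not given in the sources used here. Symbols and positions were looked up in GENCODE (GRCm38), where 34490 of 35275 identifiers matched.

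The counts were fitted by edgeR 4.0.16 under R 4.3.3 (TMM, quasi-likelihood F test, filterByExpr with minimum count 10 and minimum total 15) in 1 fit of 12 libraries, and the standard error came from the F value. The members, gene lists and tests were chosen with earlier results of these data known. Named genes are the 9 members, the adaptors and kinases the members use, list genes next to a member, and the nearest gene by likeness. From each list the up to 3 called genes of smallest p were also named, for olaparib and for MNA against DMSO only. Of the signalling genes, 1 is not reported here. The neighbours outside the lists, Clec4b1's rank, Fgr and Cblb were added after their values were seen. Alternatives were DESeq2 1.42.0, its size factors, no filter, a replicate block, 2 groups alone and each library left out. The script was tested on simulated data.

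The study's legends give 4 donor mice for RNA-seq, 1 of them also 3 for the same panel, and the labels name none. Deviations of same-numbered olaparib and DMSO libraries from their group means had Pearson r across genes of 0.227, 0.172, 0.225 and 0.408. For MNA and DMSO r was -0.0094 to 0.277 and for olaparib and MNA 0.070 to 0.392. Differently numbered libraries were not compared, so these values cannot show whether equal numbers mark paired libraries. The main fit did not use the replicate number, and the fit with it as a block is given as an alternative.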

Additional observations from a re-analysis of the deposited data

Results flagged for a closer look

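Of 27 groups of 4 libraries tested (9 genes in 3 groups), 3 held a library whose gap to the nearest other library exceeded, as a share of the group's range, Dixon's 95% critical value, and chance flags about 1 in 20 groups. Clec4n in DMSO replicate 1, at 14.0 CPM, was the highest of its group, with a gap of 0.856 of the range. Clec7a in MNA replicate 2, at 296 CPM, was the lowest of its group (0.877). Clec5a in MNA replicate 2, at 33.9 CPM, was also the lowest (0.995). Both values of MNA replicate 2 lie inside the DMSO range of the same gene.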

How the results depend on the processing

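Of 486 values (27 log2 fold changes of the 9 genes, each under 18 alternatives), 416 kept their direction and their side of the threshold, 52 lost the call, 9 gained one and 9 changed sign. The calls of Clec4n, Clec4d, Clec4a2, Clec4a3 and Clec5a with olaparib held in every alternative that left out 1 library, and those of Clec4e, Clec7a, Clec4a1 and Clec12a did not. Fitting the MNA and DMSO libraries alone ended the MNA calls of the 9 genes (0 higher), where 0.00% of all tested genes were called higher. With the replicate block, which changed no olaparib call of the 9, 9 genes were higher with olaparib and 4 with MNA (17.0% of all tested genes were higher with MNA). With the replicate block and MNA replicate 2 left out, chosen after seeing the data, 1 gene was lower with MNA than DMSO, 1 was lower with olaparib than MNA, and the Clec5a difference between olaparib and MNA was -0.12. For the other counts of these block fits the share of all tested genes is not given here. The cause of these changes was not tested.

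When 1 library was left out, genes of the set called higher numbered 5 to 9 with olaparib (5 without DMSO replicate 2) and 0 to 4 with MNA, genes called lower with MNA 0 to 1, and those called higher and lower with olaparib against MNA 3 to 6 and 0 to 1. The share of all tested genes called higher with MNA moved as well. It was 27.2% without MNA replicate 2 and 3.13% without MNA replicate 3. For the other comparisons in these fits the share of all tested genes is not given here. The counts of members therefore describe the fits and are not results about the 9 genes. The log2 difference between olaparib and MNA ranged from -0.13 to 0.63 for Clec4a1 and from -0.13 to 0.15 for Clec5a. The log2 fold change with MNA ranged from -0.25 to 0.0041 for Clec4a2, from -0.13 to 0.069 for Clec4a3 and from -0.28 to 0.11 for Clec12a.

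Other C-type lectin receptors, higher and lower, numbered 1 to 8 and 0 to 2 with olaparib and 0 to 3 and 0 to 6 with MNA when 1 library was left out. Adaptors and signalling genes numbered 6 to 11 and 0 to 4 with olaparib and 2 to 14 and 0 to 5 with MNA, and output genes 2 to 5 and 2 to 4 with olaparib and 2 to 6 and 0 to 4 with MNA. In fits of 2 groups alone, 2 other receptors were lower with olaparib, 11 signalling genes were higher and 4 lower, and 5 output genes were higher, while 0 genes of the 3 lists were called in either direction with MNA. In that MNA fit 0.00% of all tested genes were called higher. The replicate block gave 4 other receptors lower with MNA, and DESeq2 gave 4 output genes lower with MNA. With the block and MNA replicate 2 left out, other receptors numbered 2 lower with olaparib and 7 lower with MNA, signalling genes 12 higher and 5 lower with olaparib and 5 lower with MNA, and output genes 5 higher and 5 lower with olaparib and 8 higher and 4 lower with MNA. For most of these fits the share of all tested genes is not given here. The counts therefore describe the fits and are not results about the lists.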
